A study of Mus musculus with 4 samples.

Results

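The CEP genes are the protein-coding genes of the table whose symbol is Cep followed by a number, and 36 of its 53465 genes met that rule. The set was put together because 1 member, Cep290, had passed the test of all genes in an earlier look at these libraries, so Cep290 was chosen by its difference between the labels, and its values here are a description. The other members were chosen by name alone. RNA was sequenced from CD8+ T cells of mouse spleen that had been stimulated for 24 h with beads carrying antibodies to CD3 and CD28, in place of the T cell receptor ligand and its costimulus. The libraries were 2 labelled PP2Cm knockout (KO), from mice lacking the mitochondrial phosphatase PP2Cm, and 2 labelled wild type (WT). Nothing in the sources used here says which exons the knockout removes, whether it is restricted to a cell type, or how old the mice were.

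The labels conflict among themselves. The description codes, which head the table's columns, name the opposite genotype to the title and genotype field. Groups here follow the title and genotype field, and every sign would turn if the codes were right. Ppm1k, the gene of PP2Cm, had 157 and 206 counts in the libraries labelled KO and 102 and 94 counts in those labelled WT, so the knocked-out gene was higher where the label says knockout. Its log2 fold change of 0.97 (SE 0.23) had an adjusted p of 0.186 by edgeR. A deleted exon cannot be seen in values per gene. The deposited counts sum to 13394074 and 14199020 in the labelled KO, against 12967251 and 17316284 in the labelled WT.

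Centrosomes are the main microtubule organizing centres of animal cells. Each holds a pair of centrioles in a matrix of proteins, and the CEP proteins build, license, link and cap those centrioles. In many cell types the older centriole docks at the membrane and grows a primary cilium, whose base is gated by the transition zone, where CEP290 sits. T cells do not build a primary cilium. In a CD8+ T cell that has met its target, the centrosome moves to the contact site and docks there, which directs lytic granules to the target. Mutations of human CEP290 cause Joubert, Meckel and related ciliopathies and a form of Leber congenital amaurosis.

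Cep290 (ENSMUSG00000019971) lies on chromosome 10 of GRCm38 from 100487558 to 100574840 on the plus strand. In the GENCODE M21 annotation it has 53 merged exons, the most of any member. The gene Tmtc3, which encodes a mannosyltransferase of the endoplasmic reticulum, starts 208 bases away and runs the other way. At its far end Cep290 runs into 4930430F08Rik, a gene on the opposite strand with which it shares 881 exonic bases. The bases between the Cep290 and Tmtc3 genes are shown because both genes were higher in the same libraries, and those between Cep83 and its non-coding partner Cep83os because they are arranged the same way and those genes were not. Both are RefSeq sequence of GRCm38.p6, plus strand, 5′ to 3′, and lie within no annotated exon of these genes. Capitals mark CCAAT on either strand, the box bound by NF-Y, a factor of many promoters of dividing cells.
Tmtc3 to Cep290, chr10:100487351-100487557: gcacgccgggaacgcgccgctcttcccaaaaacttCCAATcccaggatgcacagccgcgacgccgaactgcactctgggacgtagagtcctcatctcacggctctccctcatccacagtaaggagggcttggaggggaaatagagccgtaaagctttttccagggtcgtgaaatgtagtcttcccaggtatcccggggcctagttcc
Cep83os to Cep83, chr10:94688577-94688653: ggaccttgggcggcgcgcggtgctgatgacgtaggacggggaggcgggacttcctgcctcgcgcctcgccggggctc

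The first stretch is 207 bases long with 58.0% G and C and holds CCAAT at 1 place, and the second is 77 bases long with 75.3% G and C and holds it at 0. A longer stretch has more places for a match, and both stretches were picked by the directions of their genes. With a single pair of each kind, the difference in matches was not tested. Among the RefSeq promoter windows, 250 bases before to 50 after each start, 15 of the 30 CEP genes that have one hold CCAAT on either strand. That is 50%, against 43.5% of 9004 tested genes and 41.1% of all 27025 genes with a window. A match is a run of letters, not a site shown to be bound, and the share in the CEP genes is near that of tested genes.

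Cep290 stood at 15.1 and 22.3 CPM (counts scaled to the library's total, with TMM factors) in the libraries labelled KO, against 4.68 and 3.59 CPM in those labelled WT. The raw counts behind these were 201 and 322 for the labelled KO, and 61 and 61 for the labelled WT. Both libraries labelled KO were higher than both labelled WT, and the gap between the labels was wider than the gap within either pair. The means were 18.7 ± 5.07 CPM for the labelled KO and 4.13 ± 0.774 CPM for the labelled WT (SD, n = 2 each). That is 4.54-fold higher in the labelled KO, a log2 fold change of 2.18 (SE 0.26) with 95% limits of 1.56 and 2.81. Leaving out labelled KO replicate 2 gave a log2 fold change of 1.88 and took Cep290 below the threshold. Per kilobase, Cep290 was a low member even where it was high: its FPKM was 1.04 and 1.57 in the libraries labelled KO and 0.325 and 0.244 in those labelled WT, which placed it 29th of 33 members in the labelled KO and 33rd in the labelled WT.

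Tmtc3 (ENSMUSG00000036676, chromosome 10, 100443902 to 100487350, minus strand) shares no annotated base with Cep290. It had 4.81 and 7.26 CPM in the libraries labelled KO and 2.38 and 1.94 CPM in those labelled WT, from 64 and 105 counts against 31 and 33. The groups did not overlap, and replicate 2 was the higher of the labelled KO pair, as it was for Cep290 and for most tested CEP genes. The log2 fold change of Tmtc3 was 1.49 (SE 0.32, limits 0.74 and 2.24), with an adjusted p of 0.146 by edgeR and 0.112 by DESeq2, so it did not pass. Its count was 31.8% and 32.6% of that of Cep290 in the libraries labelled KO and 50.8% and 54.1% in those labelled WT.

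At the other end, 4930430F08Rik had 12.2 and 12.5 CPM in the libraries labelled KO and 8.82 and 7.76 CPM in those labelled WT. Its log2 fold change was 0.58 (SE 0.18), with an adjusted p of 0.272 by edgeR. No source used here says that strand was used in counting, so reads in the 881 shared bases cannot be told apart. Of 31 annotated neighbours within 400 kb of Cep290, Tmtc3 and 4930430F08Rik were the 2 with any count. The other 29 were at 0 in all 4 libraries or had no row in the deposited counts. The genes of that stretch with any count, Cep290 and both neighbours, therefore each lay higher in the labelled KO pair, with no overlap. Such separation, in either direction, was seen in 44.9% of all 13528 genes tested.

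**Figure D1:**
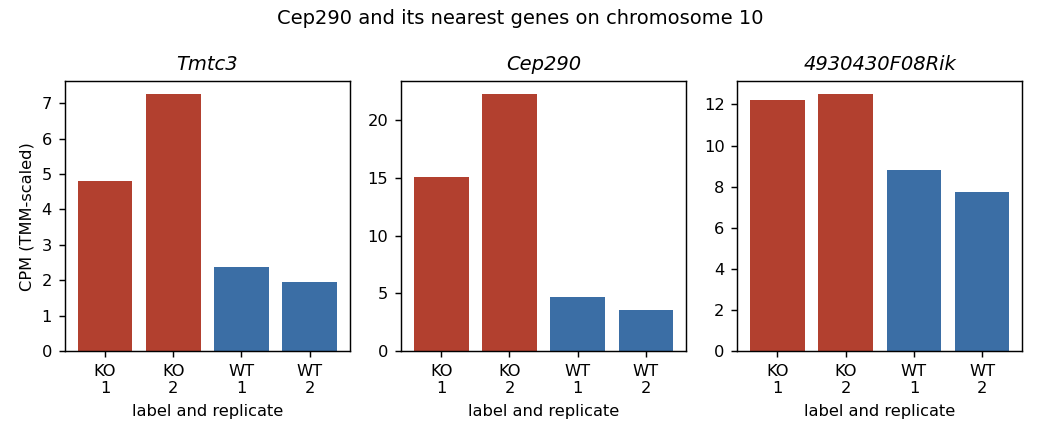
CPM (linear axes from 0, a separate scale for each gene) of Tmtc3, Cep290 and 4930430F08Rik in each library, labelled KO in red and labelled WT in blue. Each bar is 1 library; in all 3 genes both red bars stand above both blue bars.

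Of the 36 CEP genes, 33 had enough counts to be tested. By edgeR's quasi-likelihood test with Benjamini-Hochberg adjustment over all genes, 1 of the 33 passed at 0.05, against 0.207% of all genes tested, and that 1 was Cep290, the gene the set was built around. DESeq2 also called 1, where it called 1.88% of the 13445 genes it adjusted. At an unadjusted p under 0.05 there were 2 members, Cep290 and Cep170, against 12.9% of all genes. The lowest adjusted p among the other 32 was 0.356. The groups did not overlap in 16 members, 48.5% of those tested, close to the 44.9% of all genes, with the labelled KO above in 10 and below in 6.

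The other 32 tested members lay between log2 fold changes of −0.35 and 0.59, with a median of 0.01, where the median of all genes tested was −0.01. The differences of 31 of them were smaller than 1.5-fold. The precision behind this was moderate: 95% limits lay inside a 2-fold difference for 31 of the 32, and inside 1.5-fold for 16. For the rest, the limits took in a difference of 1.5-fold. Summed over the members without Cep290, the libraries labelled KO held 1136 and 1245 CPM, against 1257 and 1112 CPM in those labelled WT, and the groups overlapped. Within a pair, the median gap between replicates was 0.14 on the log2 scale for the labelled KO and 0.22 for the labelled WT.

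**Figure D2:**
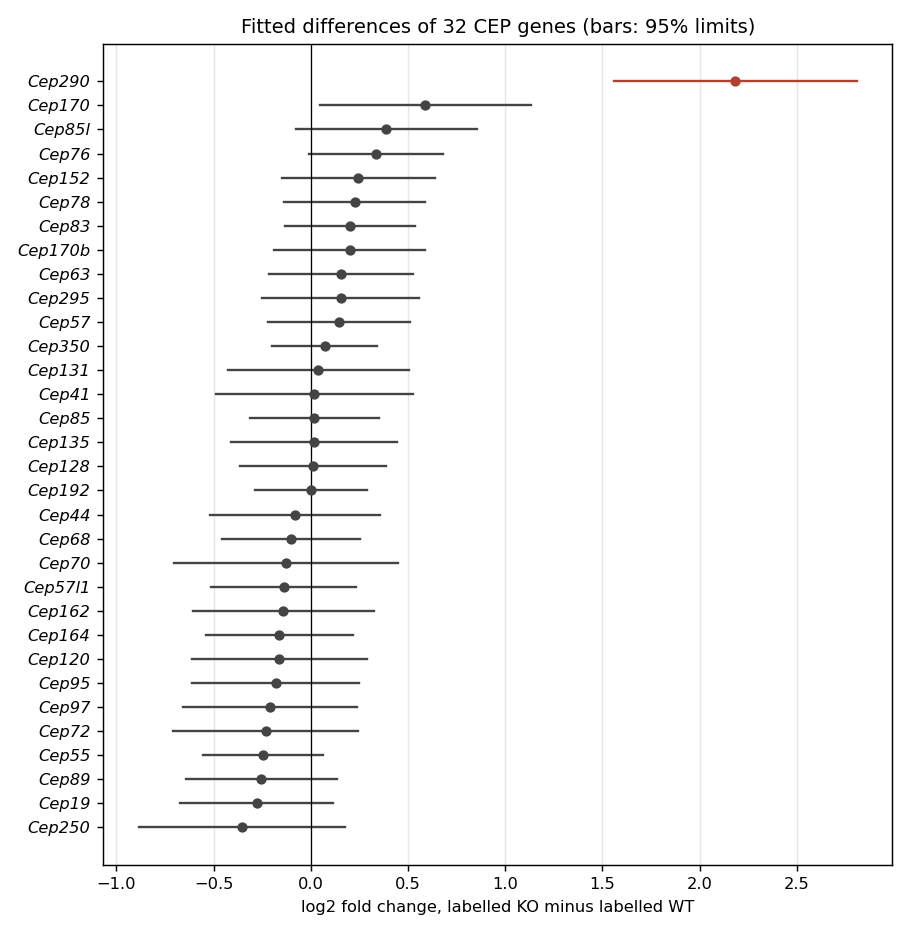
Fitted log2 fold change, labelled KO minus labelled WT, of 32 tested CEP genes (points) with 95% limits (bars), Cep290 in red. Cep290 stands at 2.18 and the other 31 lie between −0.35 and 0.59.

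Levels per kilobase ranged widely across the family. The highest mean FPKM over the 4 libraries was that of Cep55, at 17.1, a protein that recruits the abscission machinery to the midbody at the end of division. Next came Cep120 at 10.6, which elongates centrioles, Cep192 at 8.08, a scaffold that recruits the kinase PLK4, Cep78 at 8.01 and Cep76 at 7.73, which limits centriole reduplication. Cep250 at 7.62, Cep83 at 6.67 and Cep85 at 6.46 completed the 8 highest. The 5 lowest of the tested members were Cep70 at 0.848, Cep41 at 0.82, Cep290 at 0.794, Cep170 at 0.789 and Cep72 at 0.648. The deposited gene lengths exceed the merged exon lengths of GENCODE M21 for 33 of 36 members, and are shorter for 2, Cep120 and Cep78. With those exon lengths, a choice made after the values were seen, 5 of the 8 highest members stayed among the 8 highest: Cep120 stood at 7.04 FPKM, Cep78 at 6.58 and Cep76 at 8.12, below Cep57 at 10.3, Cep19 at 9.02 and Cep68 at 8.86. The 5 lowest members were the same genes, with Cep290 the lowest at 0.988 FPKM and 31st of 33 in the labelled KO.

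**Figure D3:**
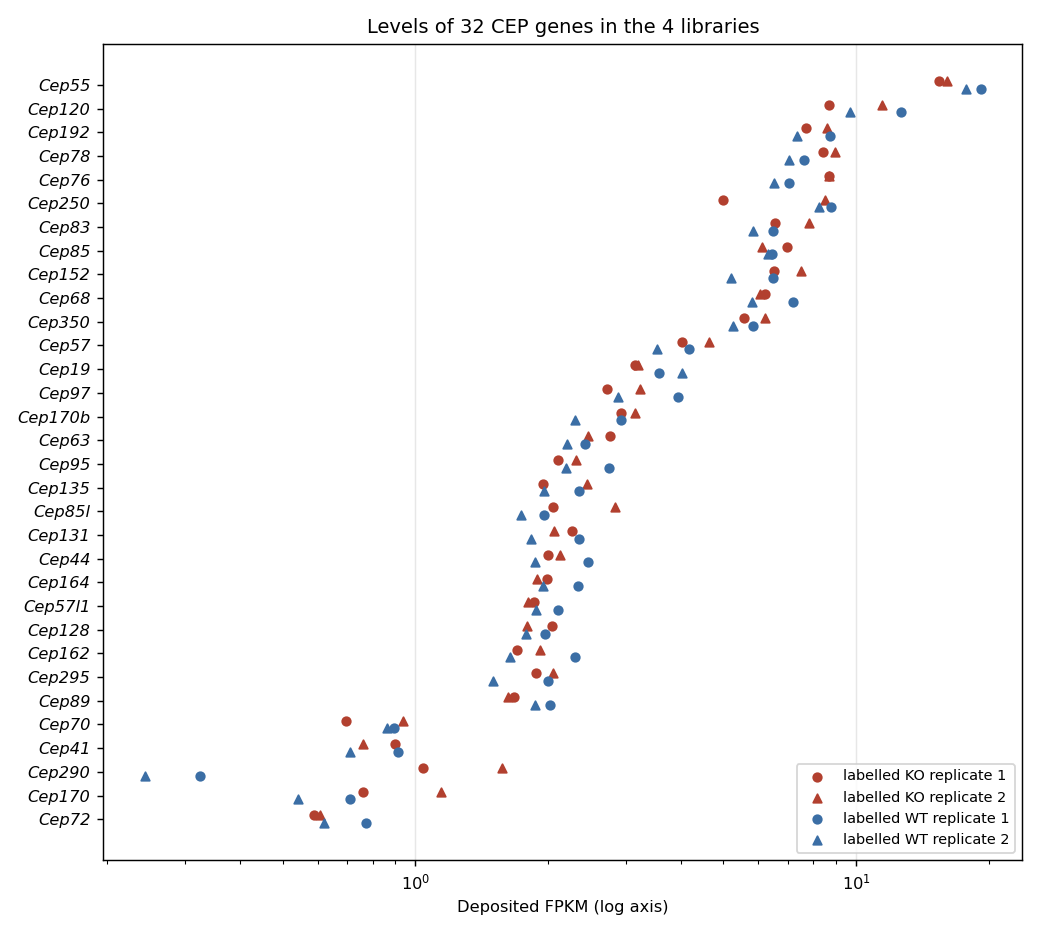
Deposited FPKM (log axis) of 32 tested CEP genes in each library, ordered by mean, labelled KO in red and labelled WT in blue, with circles for replicate 1 and triangles for replicate 2. The red and blue points of Cep290 stand clear of each other, between 0.244 FPKM in a library labelled WT and 1.57 FPKM in one labelled KO.

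The remaining 3 members were at or near 0. Cep112 had 0 and 0 counts in the libraries labelled KO and 0 and 1 in those labelled WT. Cep126 had 0 and 0 counts in the labelled KO and 2 and 1 in the labelled WT. Cep295nl had 1 and 2 counts in the labelled KO and 2 and 1 in the labelled WT. A count of 0 in these libraries allows up to 0.225 and 0.207 CPM in the labelled KO and 0.230 and 0.176 CPM in the labelled WT, by counting error alone. Cep295nl lies within Timp2, which is read on the same strand and had 105 and 87 counts in the labelled KO against 116 and 120 in the labelled WT.

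The genes of centriole duplication and assembly form the largest group by role, with 12 members, all tested and 0 past the threshold. Their log2 fold changes ran from −0.21 to 0.34 with 8 positive and 4 negative. Cep76 had 34.7 and 33.9 CPM in the libraries labelled KO and 27.9 and 26.4 CPM in those labelled WT. The replicates of Cep76 lay close together and the labels apart, with a log2 fold change of 0.34 (SE 0.15) and an adjusted p of 0.396 by edgeR. Cep192 had 119.8 and 130.4 CPM in the labelled KO and 134.7 and 115.5 CPM in the labelled WT. Those values overlapped fully, and the log2 fold change of 0.00 had limits of −0.29 and 0.29. Cep152, which with Cep63 forms the ring where a new centriole starts, had 37.8 and 42.4 CPM in the labelled KO and 37.2 and 30.6 CPM in the labelled WT (log2 fold change 0.24, adjusted p 0.591 by edgeR). For Cep63 the log2 fold change was 0.16. Cep97, which caps centrioles with CP110 and holds back ciliogenesis, had a log2 fold change of −0.21, and Cep135, of the cartwheel, 0.01.

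Among the centriole linker and satellite genes, Cep250 had the lowest log2 fold change of all members, and it rested on 1 library. Cep250 encodes C-Nap1, which anchors the linker between the centrioles. It had 69.3 and 115.4 CPM in the libraries labelled KO and 120.5 and 115.6 CPM in those labelled WT. Labelled KO replicate 1 was low and the other 3 libraries lay close together. Its log2 fold change of −0.35 (SE 0.22, adjusted p 0.562 by edgeR) was −0.03 without labelled KO replicate 1 and −0.76 without labelled KO replicate 2. On the opposite strand of Cep250 lies 6430550D23Rik, which had 0 and 1 counts in the labelled KO and 0 and 2 in the labelled WT. The log2 fold changes of the others were −0.10 for Cep68, also of the linker, −0.23 for Cep72 and 0.04 for Cep131, both of centriolar satellites.

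The appendages of the older centriole anchor microtubules and dock it to membranes, and Cep170, of the subdistal appendages, had the largest log2 fold change after Cep290. Cep170 had 27.6 and 40.4 CPM in the libraries labelled KO and 25.4 and 19.9 CPM in those labelled WT. Both labelled KO values were higher, but replicate 1 by little. The log2 fold change was 0.59 (SE 0.23, limits 0.05 and 1.13), with an adjusted p of 0.356 by edgeR and 0.358 by DESeq2. It was 0.29 without labelled KO replicate 2 and 0.84 without labelled KO replicate 1. No gene overlapping Cep170 had more than 2 counts in a library.

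The distal appendage genes did not share a direction. Cep83, which recruits the others, had 58.3 and 67.8 CPM in the libraries labelled KO and 57.1 and 52.6 CPM in those labelled WT, a log2 fold change of 0.20. Cep89 had 12.6 and 12.0 CPM in the labelled KO and 15.0 and 14.3 CPM in the labelled WT, a log2 fold change of −0.25 (adjusted p 0.57 by edgeR). That of Cep164, which brings the kinase TTBK2, was −0.16. Cep19 had 14.3 and 14.2 CPM in the labelled KO and 16.1 and 18.5 CPM in the labelled WT, a log2 fold change of −0.28 (adjusted p 0.538 by edgeR). It is recruited to the centriole by Cep350, whose log2 fold change was 0.07. Of the 7 appendage and recruitment genes, 0 passed.

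In the group of the transition zone, axoneme and cilium, the members besides Cep290 did not pass. Cep162, which tethers CEP290 to the axoneme, had 21.9 and 24.1 CPM in the labelled KO and 29.4 and 21.4 CPM in the labelled WT, which overlap. The log2 fold change of Cep162 was −0.14. Those of Cep78 and of Cep41, needed for tubulin glutamylation in cilia, were 0.22 and 0.02.

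Among the members outside these groups, Cep85l had 17.6 and 23.9 CPM in the libraries labelled KO and 16.7 and 15.1 CPM in those labelled WT. Its log2 fold change of 0.39 (SE 0.20) had an adjusted p of 0.467 by edgeR. Without labelled KO replicate 2 it was 0.16, and without labelled KO replicate 1 it was 0.59. A processed pseudogene on the same strand inside Cep85l, Gm17823, had 15 and 26 counts in the labelled KO and 34 and 34 in the labelled WT.

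Cep55 had 47.5 and 48.3 CPM in the libraries labelled KO and 58.3 and 55.3 CPM in those labelled WT. The groups did not overlap, and the log2 fold change of −0.25 (SE 0.13) had an adjusted p of 0.489 by edgeR. Cep55 is made mostly by dividing cells, and a list of 22 mitosis markers was read beside it. Log2 fold changes were below 0 for 19 of these and above 0 for 3, the median being −0.13, and both libraries labelled KO were below both labelled WT in 11. Their sum was 3743 and 3809 CPM in the labelled KO and 4278 and 3944 CPM in the labelled WT. Among all genes tested, 23.3% lay below without overlap. None passed by edgeR, 2 had an unadjusted p under 0.05, where 12.9% of all genes did, and DESeq2 called 1, the cyclin gene Ccnb2, at 37.8 and 30.4 CPM in the labelled KO and 64.2 and 61.3 CPM in the labelled WT. What part division had in the level of Cep55 was not tested.

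What the CEP genes share besides the name is mostly their annotation. The terms that the table gives per gene place 34 of 36 at the centrosome, the centriole or the microtubule organizing centre, against 4.38% of all genes tested, and 18 of 36 name the cilium, against 2.81%. The 2 without a centrosome term were Cep170b and Cep57l1. The 36 genes lie on 15 chromosomes, with 7 on chromosome 9, 5 on chromosome 11 and 4 on chromosome 10. The promoter windows of the 30 members were searched on both strands for further motifs. These members include Cep112 and Cep126, which were not tested, so the share of all genes with a window is given too. TTTGAA, the element of many cell cycle genes, was found in 30% of members, 14.3% of tested genes and 20.2% of all genes. The core GGCGGGA of E2F sites stood in 36.7% of members, 24.6% of tested genes and 12.75% of all genes. For the ETS core CCGGAA these shares were 36.7%, 33.8% and 16.7%. GTTGCC, of the X-box bound by RFX factors of ciliary genes, was found in 26.7% of members, 14.9% of tested genes and 14.1% of all genes. The window of Cep55 held the cell cycle element and the ETS and E2F cores, and that of Cep290 held the NF-Y box and the ETS core. These shares are descriptions with no test.

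The arrangement of Cep290 and Tmtc3 recurs in the family: 18 of 36 members have another gene on the opposite strand whose start lies up to 1000 bases upstream or 500 bases inside. The share of all genes with such a neighbour was not counted, so the arrangement cannot be called particular to the family. In 12 of these pairs both genes were tested, and the log2 fold changes had the same sign in 6. Cep83 and Cep83os, whose intervening bases are printed above, start 78 bases apart and had log2 fold changes of 0.20 and −0.47. Cep83os had 3.98 and 4.91 CPM in the libraries labelled KO and 7.29 and 5.11 CPM in those labelled WT (adjusted p 0.533 by edgeR). Cep170 starts 593 bases from Sdccag8, itself a centrosomal gene, with a log2 fold change of −0.04. Tmtc3 had the largest log2 fold change among the 12 partners. At an unadjusted p under 0.05 there were 3 partners: Tmtc3, Sesn1, next to Cep57l1, at −0.45, and Anapc13, next to Cep63, at −0.38. That is 3 of 12, where 12.9% of all genes tested had such a p.

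**Figure D4:**
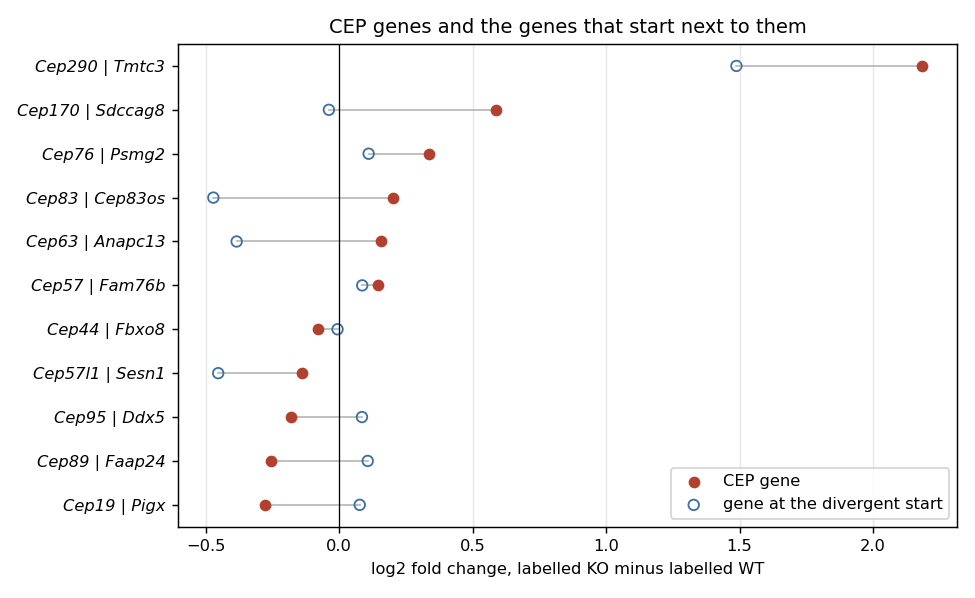
Log2 fold change, labelled KO minus labelled WT, of 11 CEP genes (red, filled) and of the gene with a divergent start next to each (blue, open), ordered by the CEP gene. Cep290, chosen by its difference, stands at 2.18 and Tmtc3 at 1.49, and the partners in the other 10 pairs lie between −0.47 and 0.11.

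The wider machinery around CEP290 and the centrosome was read through 7 lists with 123 distinct genes, 117 of them tested. None passed by edgeR or DESeq2, the lowest adjusted p by edgeR was 0.256, and 5 had an unadjusted p under 0.05, or 4.27%, against 12.9% of all genes. Their median log2 fold change was −0.02. The transition zone list holds the partners of CEP290 at the ciliary gate, and 22 of its 24 genes were tested. Among these, 6 were above 0 and 16 below, the median being −0.07, and both libraries labelled KO were above both labelled WT in 0 of them and below in 6, where 21.5% of all genes tested lay above and 23.3% below. Its lowest members were B9d1 and Tmem107, both at −0.51 with adjusted p of 0.511 and 0.476 by edgeR. The list summed to 162.6 and 168.7 CPM in the labelled KO and 189.1 and 180.7 CPM in the labelled WT.

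The other lists held few members with an unadjusted p under 0.05. Centriole duplication had 0 of 15, with Stil, a partner of PLK4, at −0.51 (adjusted p 0.482 by edgeR) and Poc1a at −0.37. Stil had 28.0 and 30.6 CPM in the libraries labelled KO and 53.7 and 30.1 CPM in those labelled WT. Those groups overlapped, and the difference rested on labelled WT replicate 1. Among 12 centriolar satellite genes tested, Spag5, which also acts at the spindle, had 71.7 and 73.2 CPM in the libraries labelled KO and 99.9 and 87.1 CPM in those labelled WT (log2 fold change −0.37, adjusted p 0.293 by edgeR). For the appendages it was Ankrd26, a distal appendage protein, at 32.3 and 37.1 CPM in the labelled KO and 25.9 and 23.7 CPM in the labelled WT (log2 fold change 0.48, adjusted p 0.283 by edgeR). In the gamma-tubulin and augmin list it was Tubg2, the minor gamma-tubulin gene, at 4.13 and 3.46 CPM in the labelled KO and 7.98 and 5.997 CPM in the labelled WT (log2 fold change −0.88, adjusted p 0.256 by edgeR). Bbs12, a chaperone gene of the BBSome, had a log2 fold change of 0.48 and Ift27, of the intraflagellar transport complex, −0.46, with adjusted p of 0.305 and 0.291 by edgeR. The medians of these 6 lists lay between −0.04 and 0.05.

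**Figure D5:**
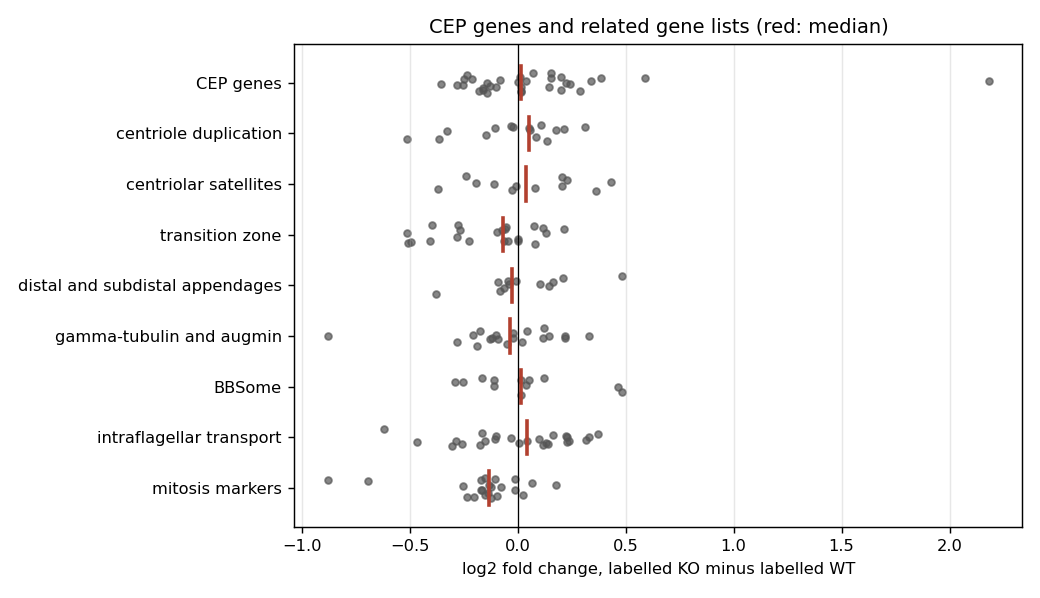
Log2 fold change, labelled KO minus labelled WT, of each tested gene (points) of the CEP set, of 7 lists of centrosomal and ciliary genes and of the mitosis markers, with each median as a red line. Cep290, at 2.18, is the point farthest from 0, and the medians lie between −0.13 and 0.05.

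Cd8a, which defines the labelled cell type, had 545.8 and 510.3 CPM in the libraries labelled KO and 541.3 and 522.2 CPM in those labelled WT. Of the 7 genes in the CD8 T cell list, 5 had a log2 fold change below 0 and 0 passed, with a summed 2036 and 1956 CPM in the labelled KO and 2284 and 2039 CPM in the labelled WT. The T cell receptor complex genes Cd3d (log2 fold change −0.52) and Cd3g (−0.41) had an unadjusted p under 0.05, with adjusted p of 0.222 and 0.276 by edgeR. That is 2 of 7, where 12.9% of all genes tested had such a p. Cd3e and Trac, of the same complex, had log2 fold changes of 0.01 and −0.11. Of 10 genes of multiciliated cells 7 were at 0 in all libraries, among them Dnah5, Tekt1 and Mcidas, and Foxj1 had 5 and 7 counts in the labelled KO and 9 and 23 in the labelled WT. The list summed to 6.46 and 7.05 CPM in the labelled KO and 7.75 and 9.76 CPM in the labelled WT. Most of that sum was Ccdc40, the only gene of the list with enough counts to be tested (log2 fold change −0.24, adjusted p 0.685 by edgeR). The B cell list summed to 303 and 268.2 CPM in the labelled KO and 425.2 and 364.7 CPM in the labelled WT, nearly all of it Ighm. The list of CD4 and regulatory T cells, most of it Ctla4, summed to 132 and 122.1 CPM in the labelled KO and 204.7 and 176.7 CPM in the labelled WT. Its members differed in direction: Cd4 had 9.99 and 5.12 CPM in the labelled KO and 2.99 and 4.70 CPM in the labelled WT. The log2 fold changes were 0.96 for Cd4, 0.93 for Foxp3 and 0.36 for Cd40lg, against −0.66 for Ctla4 and −0.71 for Zbtb7b, with a median of 0.36. None passed by edgeR, and DESeq2 called 1, Ctla4. The stromal and endothelial list, nearly all Pecam1, summed to 18.0 and 19.0 CPM in the labelled KO and 37.4 and 31.2 CPM in the labelled WT. Pecam1, the only gene of that list tested, had a log2 fold change of −0.88, with an adjusted p of 0.112 by edgeR and 0.011 by DESeq2, which called it. Cdh5 and Col3a1 were at 0 in all libraries, and Col1a1, Col1a2 and Pdgfrb had no more than 9 counts in any. Myeloid markers summed to at most 8.7 CPM and erythroid and platelet markers to at most 4.94 CPM in any library, and the NK cell list ranged from 78.5 to 95.1 CPM, most of it Eomes. The part of other cells in the members' values was not tested, and in bulk RNA fewer cells of a type and less RNA per cell cannot be told apart.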

How the data were processed

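A stranded kit was used to make libraries from purified mRNA, per the labels' protocols. The authors deposited whole-number counts per gene with no normalization and, beside them, deposited FPKM, which are scaled to gene length and library total: the gene length that count and FPKM imply agreed between libraries to within 0.00173% for genes with at least 50 counts. The submitters' processing notes name kallisto and GRCm38. No source used here gives their roles or says whether strand was used in counting. A further 8 columns of values were not used.

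Each column was joined to its sample through the description code. Genes were filtered with filterByExpr, and 13528 were kept. They were tested in R 4.3.3 by the quasi-likelihood method of edgeR 4.0.16, two-sided, after TMM scaling, of the labelled KO over the labelled WT, with Benjamini-Hochberg adjustment over all of them and a threshold of 0.05. The biological coefficient of variation was 15.9%. The standard error is the log2 fold change over the square root of F. The labels call the replicates biological, and name no animals. A single value in 2 against 2 libraries cannot reach 0.05 by exact permutation, and the p-values draw on an estimate of spread that genes share, between these libraries alone. The test was checked on counts simulated with the spread fitted to these libraries. That check takes the fitted spread as given and does not test it. DESeq2 1.42.0 and limma 3.58.1 gave alternatives. Same-numbered libraries were not paired: their deviations correlated at −0.17.

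The members and lists were chosen with earlier results of these data known, and the role groups and motifs after the values were seen. Named were Cep290, members at an unadjusted p under 0.05, the 8 with the largest differences, and the 8 highest and 5 lowest by FPKM. Untested members and overlapping and neighbouring genes were named too. In each list of centrosomal and ciliary genes, those at an unadjusted p under 0.05 or the 2 with the largest differences were named. Mitosis and cell type markers were read mainly as sums, so not every gene of those lists at an unadjusted p under 0.05 is named. Other members appear as examples of their role. Values of 1 member are not reported here, though counts, sums and medians over the set include it. Of 36 members, 32 lie at the coordinates of GENCODE M21 (GRCm38).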

Additional observations from a re-analysis of the deposited data

How the results depend on the processing

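Cep290 had a positive log2 fold change under all 11 alternatives. It fell short of the threshold with library totals as the scaling (2.20), on log2(FPKM + 1) (0.83), and with single libraries left out it ranged from 1.88 to 2.44, short of it without labelled KO replicate 2. The count of CEP genes past the threshold was then 0 in each of these, and it ranged from 0 to 1 with single libraries left out. The members' median log2 fold change ranged from −0.11, without labelled WT replicate 2, to 0.12, without labelled WT replicate 1, and so changed sign with 1 library.

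Over all genes, 28 passed as reported, 146 with no filter on low counts, 253 by DESeq2, 5 on log2(FPKM + 1) and from 8 to 304 with single libraries left out, where the spread of a lone library is assumed equal to that of the other label's pair. With replicate numbers as a block 123 genes passed, with 1 CEP gene among them, Cep290 (log2 fold change 2.17). Because the deviations of same-numbered libraries had a weak negative correlation (−0.17), crossed numbers were added as a block after the data were seen. That block gave 12 genes and 0 CEP genes (Cep290 2.16). The 7 further single genes named for their size (Cep170, Cep85l, Cep250, Cep76, Cep19, Cep89, Tmtc3) and 4930430F08Rik kept their sign and stayed short of the threshold in all 88 refits. Cep290 and Tmtc3 rest on 31 to 61 counts in each library labelled WT, which limits their precision.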

Other observations

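Of the 3 genes with a Cep symbol that do not code for protein, Cep83os alone was counted, and Cep112it and Cep112os1, both inside Cep112, were at 0 in all 4 libraries.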
